A study of Mus musculus with 12 samples.

Results

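Long interspersed nuclear elements (LINEs) supplied 941 of the 37358 open-chromatin peaks of C2C12 myotubes that carried a mean of at least 5 tags over 6 ATAC-seq libraries, which is 2.52% of them. A peak was taken as a LINE peak when the deposited annotation placed it in a LINE and not at a promoter; the tags counted in it were used only for the minimum of 5. The merged table held 38244 peaks in all, of which 1143 lay in LINEs at any tag level, and 202 of those fell under the minimum. No LINE peak was dropped for being annotated to a promoter.

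ATAC-seq, which reads open chromatin by transposase insertion, was run on C2C12 myotubes given medium conditioned by Colon-26 (C26) mouse colon carcinoma cells for 24 h (3 libraries) and on C2C12 myotubes labelled as control (3 libraries). C2C12 is a mouse myoblast line, labelled here with the genotype C3H, that fuses into myotubes when serum is withdrawn; the titles say myotubes while the cell type field says myoblast. A second experiment, used below only for the genes that silence LINEs and for the genes nearest to called peaks, was RNA-seq of muscle from C57BL/6 mice injected with 500000 Lewis lung carcinoma (LLC) cells (3 libraries) and from mice injected with PBS (3 libraries), taken on day 22. Both experiments model cancer cachexia, the loss of muscle mass that accompanies tumours. Nothing in the labels says that the replicates were separate cultures beyond wells seeded in triplicate, so p-values measure the spread between these libraries.

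LINEs are retrotransposons: an active copy is transcribed, and its proteins reverse-transcribe the RNA and insert a new copy elsewhere. Most copies in a mouse genome are truncated, mutated remnants that can no longer move. L2 and the CR1 and L3 elements were active in early mammals and their relatives, most L1 remnants with names such as L1M are shared among mammals, the Lx and L1_Mus elements arose in rodents, and the L1Md elements include the copies that still move in mice. Cells keep LINEs closed with DNA methylation, H3K9 methylation and the HUSH complex, but old fragments can carry short motifs that transcription factors bind, and such fragments can act as enhancers.

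Letters could be read for LINE peaks only where one overlapped a RefSeq promoter window, which spans 250 bases before to 50 after an annotated start; 10 LINE peaks did, 6 of them with the peak centre inside. The annotated starts there belong to noncoding transcripts such as Junos. 4 of the 6 are shown, each clipped to the overlap of peak and window. They include an L3 whose tags were higher after C26 medium on one scale described below, and an L1MB7 near Snai1. The others are an L2b that holds several motifs and an L1VL2 as the rodent L1. Sequences are RefSeq GRCm38.p6, 5′ to 3′ on the plus strand. Capitals mark matches, searched on both strands, to the AP-1 motif TGANTCA and the E-box CAGCTG bound by myogenic factors. They also mark the TEAD motif GGAATG, which reads CATTCC on the other strand. Motifs of MEF2, RUNX, CEBP, STAT and NF-kB factors were searched too and had no match in the 4 stretches shown.
L3 near Jun, chr4:95094675-95094862: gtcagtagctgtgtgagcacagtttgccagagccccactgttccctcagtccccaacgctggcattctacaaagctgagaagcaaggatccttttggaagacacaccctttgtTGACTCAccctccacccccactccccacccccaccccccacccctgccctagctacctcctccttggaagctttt
L1MB7 near Snai1, chr2:167553062-167553361: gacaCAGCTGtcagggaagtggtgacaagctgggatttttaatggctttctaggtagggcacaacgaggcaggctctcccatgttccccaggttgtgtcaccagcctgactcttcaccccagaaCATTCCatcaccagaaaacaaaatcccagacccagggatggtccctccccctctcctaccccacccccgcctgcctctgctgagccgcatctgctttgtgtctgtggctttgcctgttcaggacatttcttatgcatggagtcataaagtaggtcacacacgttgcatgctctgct
L2b near Pax8, chr2:24440143-24440442: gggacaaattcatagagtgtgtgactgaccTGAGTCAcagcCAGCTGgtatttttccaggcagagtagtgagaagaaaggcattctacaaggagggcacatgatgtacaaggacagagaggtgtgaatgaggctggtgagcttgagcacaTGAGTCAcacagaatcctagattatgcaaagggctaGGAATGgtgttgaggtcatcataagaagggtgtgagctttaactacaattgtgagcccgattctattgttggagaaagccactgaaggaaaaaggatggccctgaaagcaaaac
L1VL2 near Mir12205, chr9:88259637-88259936: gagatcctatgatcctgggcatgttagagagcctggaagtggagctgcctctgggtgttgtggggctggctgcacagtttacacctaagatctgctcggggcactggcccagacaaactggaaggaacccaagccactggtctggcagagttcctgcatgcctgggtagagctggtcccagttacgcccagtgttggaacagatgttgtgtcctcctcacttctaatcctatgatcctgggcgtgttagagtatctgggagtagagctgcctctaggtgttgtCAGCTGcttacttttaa

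Each match is a description of letters. Over all 32851 RefSeq windows, AP-1 letters occurred in 7.81% at 300 bases and in 5.01% at the 188 bases of the L3 stretch. The E-box letters occurred in 16.3% of windows at 300 bases, and the TEAD letters in 14.7%. The L2b stretch held 2 AP-1 matches, 1 E-box and 1 TEAD match, and the L3 stretch held 1 AP-1 match. The windows lie at gene starts and most are not LINEs, so these shares describe promoter windows and not LINEs.

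The values are HOMER tags per peak, scaled by the authors to 10 M tags per library. Library totals, deposited with those values, ran from 12.8 to 18.2 M tags after C26 medium and from 10.1 to 14.8 M in control. One library stood apart: control 1 had 27.0% of its tags inside peaks, against 12.0% to 13.5% in the C26 medium libraries and 13.1% and 17.9% in the other control libraries. Control 1 was the highest of the 6 libraries in 784 LINE peaks (83.3%; 90.3% of all tested peaks). The median spread of the controls in a LINE peak was a log2 SD of 0.58, against 0.22 after C26 medium. Results are therefore given on the deposited scale and again after median-of-ratios scaling, which divides each library by its median ratio to the geometric mean over libraries; on the second scale the spreads were 0.20 after C26 medium and 0.21 in control. That scaling moved the median log2 difference of all tested peaks by 0.52, to -0.02 against -0.54 as deposited. Muscle identity was only partly visible in these files: a promoter peak was listed for Myod1, Des and Tnnt3 of 8 muscle markers and for none of 4 immune, 4 colon epithelium or 2 liver markers, with Tek the 1 of 3 endothelial markers that had one.

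By family, 690 of the 941 LINE peaks lay in L1, 189 in L2, 55 in CR1 (which includes L3) and 7 in RTE-X. Sorted by age, 365 lay in mammalian L1 remnants, 321 in rodent L1 and 4 in L1Md. The peaks carried 107 repeat names, and 27 names with at least 10 peaks held 660 of them, led by the rodent Lx8 (107 peaks), L2 (67), L2a (60), L3 (35) and L2b (33). 509 peaks (54.1%) were intergenic and 432 lay in introns. The median distance to the nearest start site was 36071 bp, and 854 different genes were nearest to a LINE peak.

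LINE peaks were small. Their median width was 399 bp (165 to 1423 bp), against 522 bp over all tested peaks. Their mean over the 6 libraries had a median of 21.2 tags per 10 M (5.09 to 218), against 30.1 for all tested peaks. Rodent L1 peaks had a median of 18.3 tags, mammalian L1 remnants 22.1, L2 25.3, and CR1 and L3 25.04. At the lower edge of the set stood an L1MEg near Unc93a with a mean of 5.09 tags and an Lx7 near Gm10354 with 5.36; the nearest LINE peaks left out were an L1Md_A near Cd180 with 3.80 and an L1Md_T near 1700111N16Rik with 2.94.

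The highest LINE peak was an L1MDb in an intron, 82.7 kb from the start of Pitpnb, a phosphatidylinositol transfer protein (chr5:111247482-111248471, mm10). It held 182, 160 and 187 tags after C26 medium and 333, 187 and 258 in control. The C26 medium libraries lay under the 3 controls, with control 1 far above the rest, and the log2 difference was -0.52 ± 0.31 (SE; limma, Benjamini-Hochberg adjusted p = 0.222). After median-of-ratios scaling it was 0.01 (adjusted p = 0.921). The other 4 of the 5 highest were an L1MB8 near Siah1a, a ubiquitin ligase gene, an L1ME3C near Fbln2, which encodes a matrix protein, an L1_Mus3 near Brinp3 and an L1MB8 near Otos. None of the 5 passed the test as deposited. The Otos peak had 153, 128 and 149 tags after C26 medium and 223, 118 and 184 in control, and its log2 difference was -0.25 as deposited (adjusted p = 0.578) but 0.29 after median-of-ratios scaling (adjusted p = 0.0129, limma).

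Young L1 was nearly missing from the set. Of 190 L1Md regions in the merged peak list, 4 reached a mean of 5 tags, and 186 did not. Those 186 had a median mean of 0.0583 tags, 173 were under a mean of 1, and 84 were at 0 in all 6 libraries. A count of 0 allows up to 3 read ends, or 0.824 to 1.48 tags per 10 M depending on the library. L1Md_T gave 116 regions with 3 in the set, L1Md_A gave 59 with none, L1Md_Gf 8 and L1Md_F 6 with none, and the single L1Md_F2 region was in the set. The remaining low LINE peaks were 14 in rodent L1, 1 in L2 and 1 in CR1 and L3.

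These near-empty regions were nevertheless on the authors' peak lists. Of the 186 L1Md regions, 127, 166 and 144 were on the C26 medium lists 1, 2 and 3, and 22, 113 and 94 on the control lists 1, 2 and 3. The list of control 1, the library with the most tags in peaks, held the fewest of them. 28 were on all 3 C26 medium lists and no control list, and none was on all 3 control lists and no C26 medium list. Peaks under a mean of 5 made up 2.32% of the whole table and 17.7% of its LINE peaks. How reads that fit several copies were handled is not given in the sources used here, and its part in the missing tags was not tested.

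**Figure D1:**
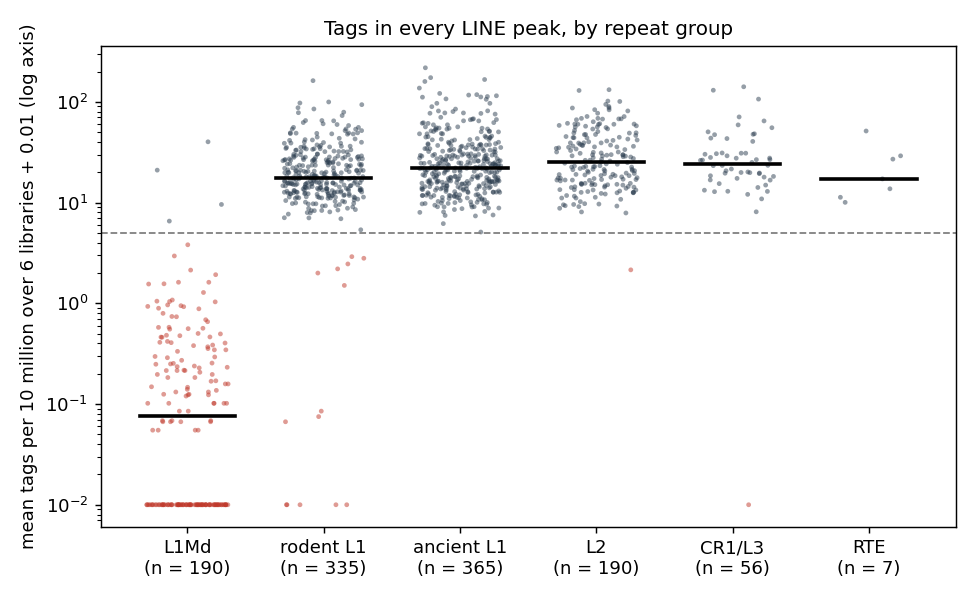
Mean tags per 10 M over the 6 libraries (log axis, 0.01 added) for each of the 1143 LINE peaks, by repeat group; black bars are medians, and the dashed line is the minimum of 5 tags. 186 of 190 L1Md regions lie under the line, while the older groups lie almost wholly above it.

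The 4 L1Md peaks in the set did not pass the test on either scale. Of the other fits, leaving out control 2 called 1 of them lower after C26 medium, and median-of-ratios scaling with a replicate block called 1 higher. With no minimum, 6 L1Md regions outside the set were called, 5 higher and 1 lower, where 0.740% and 0.554% of all peaks were called. None of the 6 held more than 3.51 tags in any library. The highest, an L1Md_T 69.1 kb from Zmynd11 (chr13:9834302-9834541), had 31.6, 30.9 and 28.6 tags after C26 medium and 59.4, 34.8 and 55.4 in control (log2 difference -0.66, adjusted p = 0.214, limma; -0.14 and 0.505 after median-of-ratios scaling). The lowest, an L1Md_T near Gm30223, had 7.80, 3.47 and 6.59 tags after C26 medium and 2.68, 9.79 and 8.90 in control, so its groups overlapped.

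Few LINE peaks moved past the spread of the deposited values. With limma on log2(tags + 1), fitted over all 37358 peaks, 15 LINE peaks were called higher after C26 medium and 15 lower at a Benjamini-Hochberg adjusted p under 0.05, where 1.15% of all tested peaks were called higher and 1.88% lower. As shares of the 941, both counts come to 1.59%. The median log2 difference of LINE peaks was -0.36, against -0.54 for all tested peaks, and 245 LINE peaks lay above 0. Leaving out control 1 gave 99 higher and 36 lower (10.5% and 3.83% of LINE peaks, where 5.23% and 7.01% of all tested peaks were called). Leaving out control 2 gave 38 higher and 333 lower (4.04% and 35.4% of LINE peaks, where 2.00% and 53.1% of all tested peaks were called). Leaving out any other library gave 2 to 6 higher and 0 or 1 lower. Groups did not overlap in 57 LINE peaks that were higher and 199 that were lower after C26 medium (3.24% and 34.0% of all tested peaks).

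On the median-of-ratios scale there were more calls, and most were higher after C26 medium. 256 LINE peaks (27.2%) were called higher after C26 medium and 62 (6.59%) lower, where 17.0% of all tested peaks were called higher and 12.7% lower. The median LINE difference was 0.15 on the log2 scale, against -0.02 for all tested peaks. Relative to the median of all peaks, LINE peaks thus lay 0.18 higher as deposited and 0.16 higher after scaling. Groups did not overlap in 305 LINE peaks that were higher and 106 that were lower (21.7% and 19.4% of all tested peaks). All 15 rises and all 15 falls of the deposited scale were called in the same direction on this scale. Without control 1, this scaling gave 235 higher and 38 lower, where 15.0% and 10.3% of all tested peaks were called.

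LINE peaks stood close to other peaks away from promoters. After median-of-ratios scaling, LTR retrotransposon peaks had a median log2 difference of 0.15, with 25.8% called higher and 7.38% lower. SINE peaks had a median of 0.10 (21.4% and 7.46%), and 20997 intronic or intergenic peaks outside repeats had 0.09 (23.02% and 9.23%). The 7744 promoter peaks lay apart, at -0.16, with 2.31% called higher and 21.7% lower. Within bands of mean tags, LINE peaks and intronic or intergenic peaks outside repeats had medians of 0.41 and 0.39 at 5 to 10 tags, 0.21 and 0.12 at 10 to 20 tags, 0.10 and 0.09 at 20 to 50 tags, and 0.05 and 0.02 at 50 tags or more. The difference between LINE peaks and the other distal peaks was not tested.

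**Figure D2:**
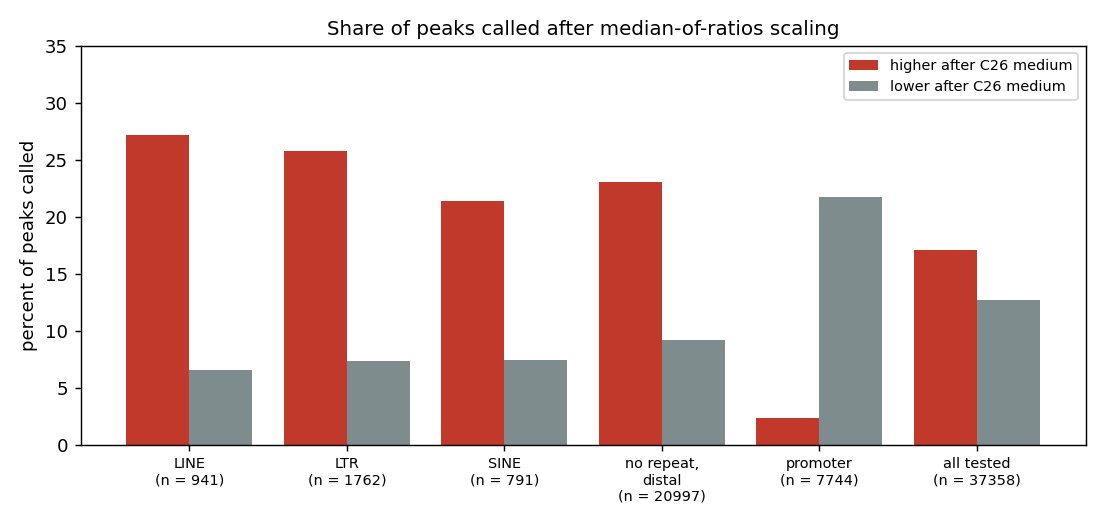
Percent of peaks called higher (red) or lower (grey) after C26 medium with limma at an adjusted p under 0.05 after median-of-ratios scaling, by annotation class. LINE peaks (27.2% higher, 6.59% lower) resemble the LTR, SINE and other distal bars, and promoters show the opposite balance.

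A share of tags does not depend on the scaling of a library, though it does depend on the tags of the other peaks. Of all tags inside tested peaks, LINE peaks took 1.82%, 1.81% and 1.86% after C26 medium, and 1.65%, 1.60% and 1.59% in control. The 95% Wilson intervals for C26 medium were 1.81% to 1.84%, 1.79% to 1.82% and 1.85% to 1.87%. The control intervals were 1.64% to 1.66%, 1.59% to 1.61% and 1.58% to 1.60%. All these intervals cover counting error only and treat read ends (0.5 tag each) as independent. Ends of the same pair can fall in the same peak, so the intervals may be too narrow. Every C26 medium library lay above every control library, control 1 included. L2 peaks took 0.418%, 0.421% and 0.431% after C26 medium and 0.376%, 0.373% and 0.367% in control, again without overlap, and both L1 remnants and rodent L1 did the same. CR1 and L3 overlapped, with 0.110%, 0.119% and 0.119% after C26 medium and 0.114%, 0.109% and 0.107% in control. The 4 L1Md peaks overlapped too. The 7 RTE-X peaks took 0.00941%, 0.00924% and 0.00890% after C26 medium and 0.00957%, 0.0110% and 0.0113% in control. The intervals of C26 medium 1 (0.00842% to 0.0105%) and control 1 (0.00882% to 0.0104%) overlapped. Much of this difference rests on 1 called peak, the L4_C_Mam near Mir694. It held 30.0, 21.5 and 30.2 of the 122, 111 and 120 RTE-X tags per 10 M after C26 medium. In control it held 90.7, 55.0 and 80.6 of 259, 144 and 203.

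**Figure D3:**
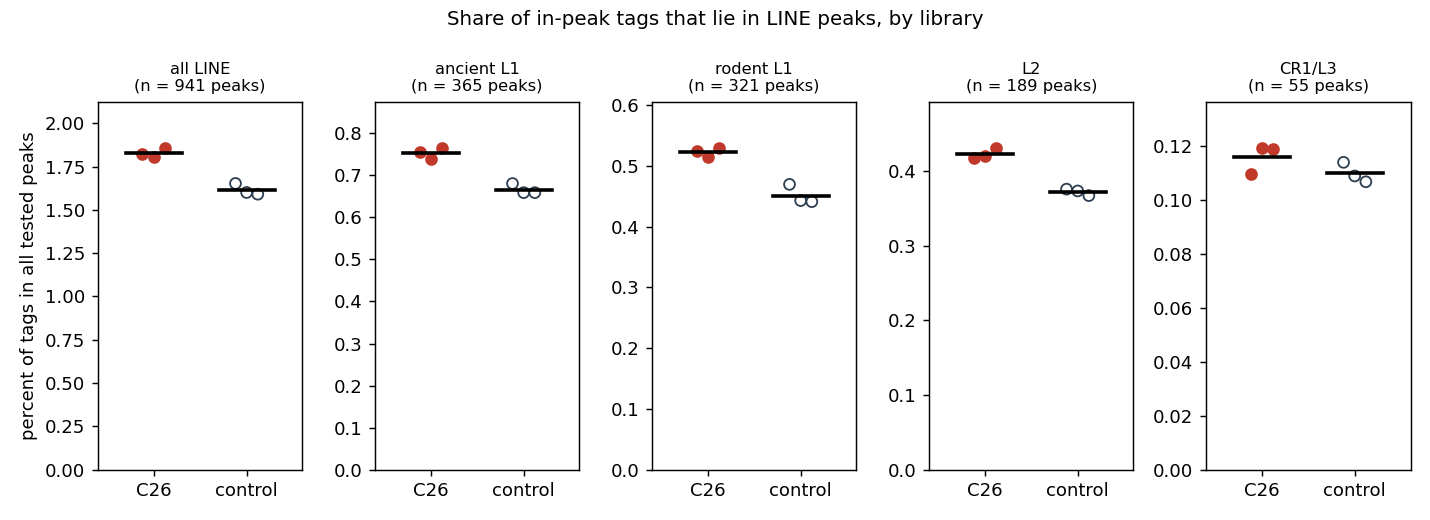
Percent of the tags in all tested peaks that lie in LINE peaks and in 4 of the repeat groups, for each C26 medium library (filled) and control library (open); bars are means of 3 libraries and each axis starts at 0. The groups are apart for all LINE peaks, both L1 groups and L2, and overlap for CR1 and L3. The RTE-X peaks and the L1Md peaks are not drawn.

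The 15 rises ran from a log2 difference of 1.41 to 2.69, 12 of them were intergenic, and 12 were on no control peak list. They were low peaks, with a median mean of 11.8 tags. 9 of the 15 had a control mean under 5 tags and so entered the test only through their C26 medium values, as did 2 of the 15 falls through their control values. Such peaks had to differ between the groups, and the counts of rises and falls carry that limit. The 9 rises were those near H2afy3, Tmx1, Hgf, Ptgfr, Ap1s2, Mettl11b, Casp14, 4833417C18Rik and Cyp3a13. The 2 falls were those near Ldlrad3 and Stx18. For these peaks the adjusted p and the gap between groups describe the values and are no support for a change. In all 15 rises the lowest C26 medium library lay above the highest control library.

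The largest rise was an L1ME2, a mammalian L1 remnant 52.2 kb upstream of H2afy3 (chr15:62271484-62271825). It held 37.5, 23.6 and 29.7 tags after C26 medium and 5.81, 1.69 and 4.94 in control. It averaged 30.2 ± 6.95 tags after C26 medium and 4.15 ± 2.17 in control (SD, n = 3 each), and the log2 difference was 2.69 ± 0.45 (SE; limma adjusted p = 3.16e-06). An Lx6 in an intron 60.9 kb from the start of Tmx1, a membrane thioredoxin of the endoplasmic reticulum, held 21.1, 18.1 and 19.8 tags after C26 medium and 4.91, 1.35 and 3.46 in control (chr12:70513956-70514177; log2 difference 2.38 ± 0.48, adjusted p = 0.000215). Both were on all 3 C26 medium lists and no control list, and both are among the 9 rises that passed the minimum only through C26 medium.

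Among rises near genes of known signalling, an L1MA6 lay 73.1 kb downstream of the start of Hgf, the ligand of the Met receptor that activates muscle satellite cells (chr5:16626815-16627130). It held 18.7, 19.8 and 20.6 tags after C26 medium and 4.47, 2.36 and 4.94 in control. The C26 medium libraries lay within 2 tags of each other and each was above the highest control (log2 difference 2.11 ± 0.47, adjusted p = 0.00137). An L2 lay 56.1 kb upstream of Ptgfr, the receptor for prostaglandin F2alpha (chr3:151893452-151893777). Its values were 16.0, 16.3 and 23.9 tags after C26 medium and 3.57, 2.70 and 6.92 in control (log2 difference 1.92 ± 0.47, adjusted p = 0.00482). The peaks near Hgf and Ptgfr are also among the 9 rises that passed the minimum only through C26 medium. The nearest gene is the annotation's choice by distance, and no contact between a peak and a gene was measured.

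The rest of the largest rises mixed ages. Rodent elements were an L1_Mus4 near 4930590L20Rik, an Lx5c near Mettl11b and an Lx3_Mus near Casp14, a caspase of the epidermis. The L1_Mus4 held 34.0, 31.9 and 42.3 tags after C26 medium and 13.8, 6.08 and 7.91 in control, the highest C26 medium levels of the 3 (log2 difference 1.91). Mammalian remnants were an L1ME3G near Ap1s2, a clathrin adaptor subunit gene (13.3, 11.4 and 17.3 tags after C26 medium and 1.34, 3.04 and 1.98 in control, log2 difference 2.28), an L1MD3 near 4833417C18Rik, an L1ME1 near Gm16793 and an L1MB7 near Cyp3a13, a cytochrome P450. An L2b 7.56 kb upstream of Ppie, a cyclophilin, closed the 12 (23.8, 20.5 and 30.2 tags after C26 medium and 11.2, 5.06 and 8.90 in control, log2 difference 1.50). The 3 smaller rises lay near Stard6, Mir181b-1 and Eif2b2, a subunit of the exchange factor for translation initiation. The peaks near Mettl11b, Casp14, Ap1s2, 4833417C18Rik and Cyp3a13 passed the minimum only through C26 medium.

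The 15 falls ran from -1.22 to -2.04 on the log2 scale, 10 were intergenic, and 9 were on no C26 medium list. Their median mean was 20.5 tags. Control 1 was the highest control in 14 of the 15, as it was in 11 of the 15 rises, and in each fall every control library lay above every C26 medium library.

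The largest fall was an L1M3, 153 kb upstream of Marcks, whose product links actin to the plasma membrane and is a substrate of protein kinase C (chr10:37291721-37292257). It held 5.85, 5.90 and 8.52 tags after C26 medium and 63.4, 16.2 and 27.2 in control. The controls differed widely among themselves but all lay above the C26 medium libraries. It averaged 6.76 ± 1.53 tags after C26 medium and 35.6 ± 24.7 in control (SD, n = 3 each), and the log2 difference was -2.04 ± 0.43 (adjusted p = 0.000693; -1.54 after median-of-ratios scaling). An L1MEc in an intron near Armc1 was tight after C26 medium, at 13.7, 13.9 and 13.2 tags, and held 63.9, 33.8 and 59.3 tags in control (chr3:19143450-19143837; log2 difference -1.82 ± 0.40, adjusted p = 0.00132, limma). It was on all 6 peak lists.

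The fall with the highest tag level was an L2a 107 kb upstream of Lifr, the receptor that leukemia inhibitory factor shares with other cytokines of the IL-6 family (chr15:7022434-7023277). It held 44.5, 49.6 and 54.9 tags after C26 medium and 202, 112 and 148 in control. The lowest control was thus more than 2-fold above the highest C26 medium library; the log2 difference was -1.58 ± 0.35 (adjusted p = 0.00145), and -1.05 ± 0.10 after median-of-ratios scaling (adjusted p = 1.15e-11, limma). A second LINE peak upstream of Lifr, an Lx4A, had 8.97, 7.98 and 6.59 tags after C26 medium and 21.4, 15.2 and 17.3 in control. Its groups were apart in the same direction, but it did not pass the test (log2 difference -1.10, adjusted p = 0.114).

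Other large falls included those near Sntn, Ldlrad3, Wdr75 (a ribosome biogenesis gene), Stx18 (a SNARE of the endoplasmic reticulum), Kbtbd12, Mir3473f, Mir694 and Traf3ip3. The rodent L1VL4 near Sntn held 5.85, 4.51 and 5.49 tags after C26 medium and 30.4, 17.2 and 18.3 in control (log2 difference -1.83, adjusted p = 0.00617). The L1MEf near Kbtbd12 had the most even controls of the falls, with 8.97, 5.21 and 6.59 tags after C26 medium and 22.8, 21.3 and 21.3 in control (log2 difference -1.55, adjusted p = 0.0255). The L4_C_Mam near Mir694 was the one RTE-X element called, at 30.0, 21.5 and 30.2 tags after C26 medium and 90.7, 55.0 and 80.6 in control (log2 difference -1.42). The 3 smaller falls were an L2a near Tm9sf2, an L1M3 near Extl3, a gene of heparan sulfate synthesis, and an L1MDa near Cd163l1.

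**Figure D4:**
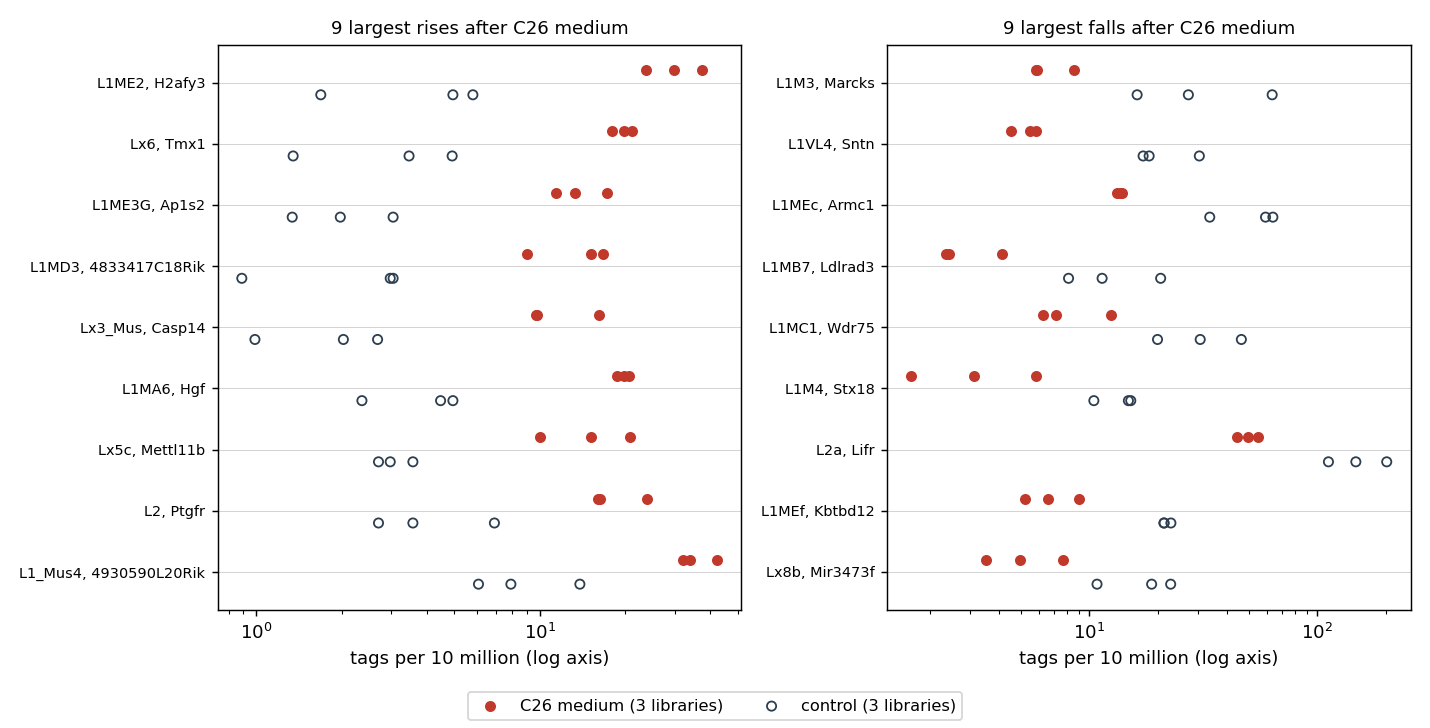
Tags per 10 M (log axis) in each C26 medium library (filled red) and control library (open blue) for the 9 largest rises and the 9 largest falls among LINE peaks; each label gives the repeat name and the nearest gene. In every peak shown the 2 groups of 3 libraries are apart, and the rises start from control values under 20 tags. Peaks that passed the minimum only through 1 group had to differ between the groups.

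The calls were spread over the repeat groups. As deposited, rodent L1 had 6 higher and 3 lower, mammalian L1 remnants 7 and 9, L2 2 and 2, RTE-X 0 and 1, and CR1 and L3 none of their 55. As shares these were 1.87% and 0.935% of rodent L1, 1.92% and 2.47% of mammalian remnants, and 1.06% and 1.06% of L2. Over all tested peaks 1.15% were called higher and 1.88% lower. After median-of-ratios scaling rodent L1 had 88 higher and 22 lower of 321, mammalian remnants 97 and 27 of 365, L2 59 and 7 of 189, and CR1 and L3 10 and 5 of 55. Over all tested peaks 17.0% were called higher and 12.7% lower on that scale. The median log2 differences of these 4 groups were then 0.17, 0.14, 0.15 and 0.10, with quartiles that largely overlapped. Differences between groups were not tested.

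**Figure D5:**
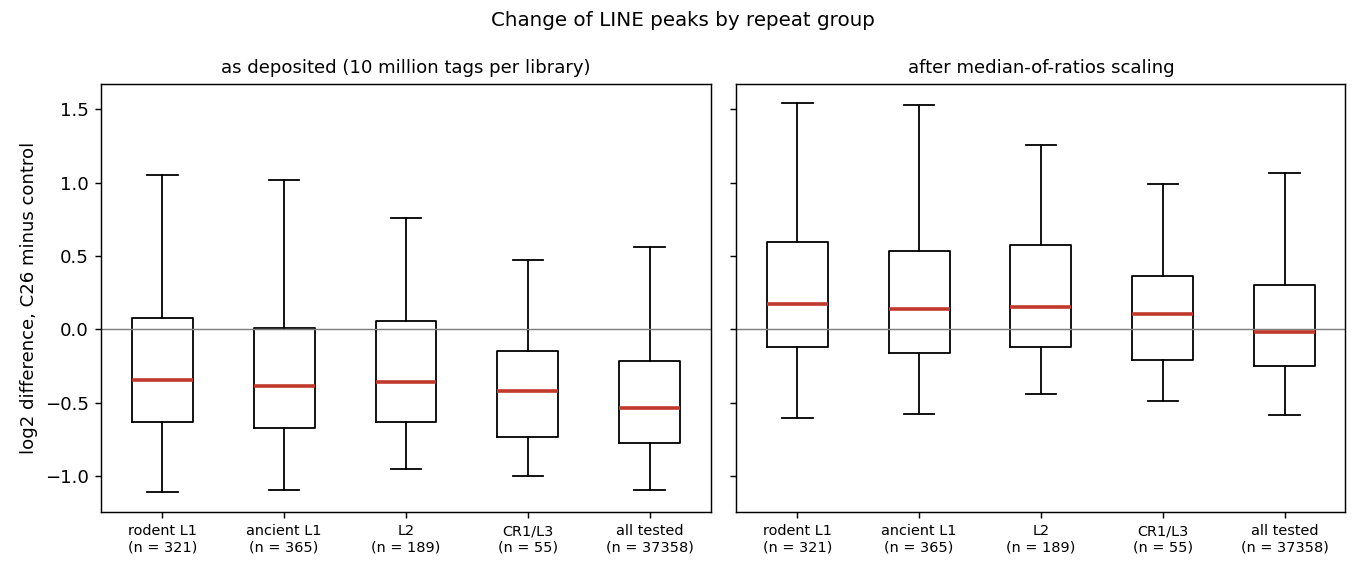
Log2 difference, C26 medium minus control, of LINE peaks by repeat group and of all tested peaks; boxes are quartiles with the median in red, and whiskers reach the 5th and 95th percentiles of peaks. All boxes sit lower on the deposited scale than after median-of-ratios scaling, and the medians of the 4 LINE groups drawn lie above that of all tested peaks on both. The 7 RTE-X peaks, not drawn, had medians below it, -0.93 as deposited and -0.41 after scaling.

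Among the 27 repeat names with at least 10 peaks, the counts of median-of-ratios calls varied. Over all tested peaks 17.0% were called higher and 12.7% lower, and over LINE peaks 27.2% and 6.59%. L2b had 18 of 33 peaks called higher and 1 lower, with a median log2 difference of 0.32, and L1MB3 had 6 of 10 higher and none lower. Lx8, the most common name, had 32 higher and 9 lower of 107, close to LINE peaks as a whole. L3 had 5 higher and 4 lower of 35, and L1MC5a had none higher and 2 lower of 10. These names were singled out after their counts were seen and carry no test.

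The peak lists of single libraries gave a view that uses no tag scale. 429 LINE peaks (45.6%) were on all 6 lists, against 60.7% of all tested peaks. 53 (5.63%) were on all 3 C26 medium lists and no control list, against 2.31% of all tested peaks. 18 (1.91%) were on all 3 control lists and no C26 medium list, against 1.69%. By library, the C26 medium lists held 751, 755 and 886 LINE peaks, and the control lists 868, 606 and 700. The 53 had a median log2 difference of 1.10, with 12 called higher as deposited and 48 after median-of-ratios scaling. The 18 had 9 and 11 called lower on the 2 scales. List membership and tags come from the same reads, so the one is no independent check of the other.

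Nearest genes were read against lists of muscle and cachexia genes. Genes of the IL-6, STAT3 and NF-kB response had 7 LINE peaks at 6 genes, of which the Lifr L2a was called lower and none higher as deposited; their median log2 difference was -0.73, against -0.54 for all tested peaks. After median-of-ratios scaling 3 were called higher, near Cxcl1, Cxcl5 and Jun, and 1 lower. Over all tested peaks 17.0% were called higher and 12.7% lower on that scale, and 1.15% and 1.88% as deposited. Calls among so few peaks were not tested as a set. The L3 whose letters are shown above, 42.6 kb upstream of Jun, an AP-1 subunit gene, held 32.8, 38.9 and 35.4 tags after C26 medium and 40.7, 13.8 and 21.8 in control. Control 1 was the highest of all 6 libraries while the other controls were the lowest, and the log2 difference was 0.60 ± 0.40 as deposited (adjusted p = 0.267) and 1.12 ± 0.17 after median-of-ratios scaling (adjusted p = 9.99e-07, limma).

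The L1_Mur3 near Cxcl1, a neutrophil chemokine, had 17.2, 9.02 and 18.9 tags after C26 medium and 5.36, 6.08 and 12.8 in control. The L1_Rod near Cxcl5, a related chemokine, had 18.3, 13.5 and 18.7 tags after C26 medium and 17.9, 4.39 and 9.39 in control. Both pairs of groups overlapped as deposited, with adjusted p of 0.186 and 0.197 (limma). The L1MB7 near Snai1, a repressor of epithelial genes, whose letters are also shown, had 60.9, 52.8 and 66.8 tags after C26 medium and 102, 42.2 and 74.2 in control (log2 difference -0.19, adjusted p = 0.709; 0.34 and 0.0191 after median-of-ratios scaling). The L2b with the most motif matches had 12.1, 23.2 and 16.5 tags after C26 medium and 50.9, 21.9 and 24.7 in control and passed on neither scale (log2 difference -0.82 as deposited and -0.31 after scaling), and neither did the L1VL2 (-0.66 and -0.14).

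TGF-beta and BMP genes had 7 LINE peaks at 5 genes, with a median log2 difference of -0.28. None was called as deposited. After median-of-ratios scaling an L2b near Tgfbr1, a TGF-beta receptor, was called higher. Peaks near Inhbb, an activin subunit, and Nog, a BMP antagonist, were called lower, where 17.0% of all tested peaks were called higher and 12.7% lower. Myogenic and sarcomere genes had 3, near Des, Myog and Casq2, with a median of -0.35 and none called on either scale. The L3b 12.8 kb upstream of Des, the muscle intermediate filament gene, had 62.0, 54.1 and 66.2 tags after C26 medium and 105, 52.0 and 86.0 in control. Extracellular matrix genes had 2, atrophy genes 1, near Foxo3, insulin and IGF genes 1, near Igf1r, and LINE silencing genes 1, near Atf7ip; none of these was called on either scale. Methionine cycle genes had none.

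The gene with the most LINE peaks was Asap1, a GTPase-activating protein of focal adhesions, with 8 over 224 kb of chromosome 15. Their log2 differences ran from -1.15 to 1.44 as deposited. An Lx8b there held 14.4, 12.5 and 20.3 tags after C26 medium and 5.36, 3.71 and 6.43 in control (log2 difference 1.44, adjusted p = 0.0593), with the groups apart. An L1_Mur3 held 42.9, 33.7 and 38.5 tags after C26 medium and 136, 61.8 and 76.1 in control (log2 difference -1.15, adjusted p = 0.0539), apart in the other direction. After median-of-ratios scaling 3 of the 8 were called higher and 1 lower, where 17.0% of all tested peaks were called higher and 12.7% lower.

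The machinery that keeps LINEs closed was examined in both experiments. Of 37 genes listed for it, 32 were expressed at a mean FPKM of at least 1 in muscle. None was called in LLC against PBS muscle by limma (0% of 12981 genes were called); 1 of the 32 had an unadjusted p under 0.05, as had 991 of all genes. Their median log2 difference was -0.06, against 0.01 for all genes. The 1 gene was Dnmt3a, a de novo DNA methyltransferase, at 6.43, 6.47 and 5.40 FPKM in LLC muscle and 7.31, 8.16 and 8.47 in PBS muscle (log2 difference -0.34, adjusted p = 0.577, limma). The groups were apart. Morc2a, an ATPase that works with HUSH, and Cbx5, heterochromatin protein HP1 alpha, were also among the genes with the smallest p, with log2 differences of 0.23 and -0.32. PBS 1 lay far under PBS 2 and PBS 3 in several listed genes, such as Uhrf1 (0.470, 19.7 and 29.4 FPKM) and Dnmt1 (2.74, 17.1 and 24.3). In others, such as Atrx (6.91, 8.52 and 7.84), it lay near them. With SEs as large as that of Uhrf1 (1.30), the lack of calls does not show that such genes were unchanged.

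In the myotubes 24 of the 37 genes had a promoter peak, with a median log2 difference of -0.74 as deposited and -0.21 after median-of-ratios scaling. As deposited, 0.968% of all promoter peaks were called lower and 0.0517% higher. Cbx3, heterochromatin protein HP1 gamma, was the 1 called lower, with 87.0, 85.4 and 93.4 tags after C26 medium and 264, 142 and 182 in control (log2 difference -1.09 ± 0.33, SE; adjusted p = 0.0389, limma). Its groups were apart, but the controls spread far more widely (SD 62.0 tags) than the C26 medium libraries (SD 4.23). After median-of-ratios scaling 5 of the 24 were called lower and none higher, in a class, the promoters, where 21.7% were called lower and 2.31% higher. Safb, Samhd1 and Trex1 had the next smallest p, with log2 differences of -0.95, -0.92 and -0.80 as deposited and -0.42, -0.39 and -0.27 after scaling.

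None of the genes nearest to the 30 called LINE peaks that passed the minimum of the test was called in LLC against PBS muscle. As 0% of all 12981 genes were called, this holds for any set of genes and is no result about these. Marcks had 16.9, 14.4 and 13.2 FPKM in LLC muscle and 20.01, 24.4 and 21.1 in PBS muscle, with the groups apart (log2 difference -0.53, adjusted p = 0.411, limma). Lifr had 7.75, 8.28 and 9.66 FPKM in LLC muscle and 9.12, 7.97 and 6.87 in PBS muscle, with overlapping groups. Hgf averaged 0.439 ± 0.170 FPKM in LLC muscle and 0.475 ± 0.217 in PBS muscle (SD, n = 3 each), and was not tested. The RNA is from muscle of mice with and without tumours and the peaks from a cell line given tumour medium, so the 2 readouts share neither cells nor treatment.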

How the data were processed

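ATAC-seq was deposited as 1 merged peak table with peak positions, the peak lists each region was on, HOMER annotation and 6 columns of signal: tags per peak that the authors scaled to 10 M per library, per the file headers. Muscle RNA-seq was deposited by the authors as FPKM per gene. The submitters' processing notes name HISAT2, Bowtie2, HOMER, MACS2 and DESeq2 and the builds GRCm38 and mm10, with no versions or roles.

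Library totals came with the deposited columns. With these totals, all values in the 6 columns came back to whole numbers of read ends (0.5 tag each), within a tolerance of 0.1. Differences were fitted on log2(tags + 1) with limma 3.58.1 (R 4.3.3, trend on, robust off) over all 37358 peaks with a mean of at least 5 tags, and p-values were adjusted by Benjamini-Hochberg over all of them. A log2(value + 1) difference understates the change of low peaks. RNA was fitted the same way on log2(FPKM + 1) for 12981 genes with a mean of at least 1. Alternatives were pseudocounts of 0.5 and 5, no minimum, a minimum of 20, median-of-ratios and quantile scaling, edgeR 4.0.16 on recovered read ends, a replicate block, and each library left out. On simulated data of this comparison (37358 peaks) the test recovered 78 of 100 peaks changed by 1 on the log2 scale. It recovered 100 of 100 changed by 2, with 11 false calls. The simulated libraries lacked the excess of tags in peaks of control 1, and their dispersion was estimated after rescaling. These counts therefore do not give the recovery of the test on the deposited scale.

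Repeat name and family come from the deposited annotation. LINE peaks, gene lists, motifs and repeat groups were chosen with earlier results of these data known. Peaks were named by rule: the 12 largest rises and 12 largest falls, the 5 highest means, the highest of each repeat group, called peaks near listed genes, 2 peaks on each side of the minimum, and the 4 silencing genes with the smallest p in each experiment. Peaks near Jun, Cxcl1, Cxcl5, Snai1, Pax8, Mir12205, Asap1, Des and Gm30223, the second peak at Lifr, and the smaller calls were named after their values were seen. A few items that this rule names are not reported here.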

Additional observations from a re-analysis of the deposited data

How the results depend on the processing

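The number of calls and their balance depended on the scale of the libraries and on which control was left out, among LINE peaks and among all tested peaks. LINE peaks called higher and lower, 15 and 15 as reported, became 256 and 62 with median-of-ratios scaling (17.0% and 12.7% of all tested peaks), 216 and 97 with quantile normalization (15.0% and 14.5%), 257 and 62 with edgeR and TMM factors (17.5% and 13%), 34 and 45 without the trend (1.90% and 5.06%), 28 and 45 at an adjusted p under 0.1 (1.79% and 7.56%), and 2 and 8 with a minimum of 20 tags, which leaves 507 LINE peaks (0.511% and 1.30%). Leaving out 1 library gave 2 to 99 higher (0.246% to 5.23% of all tested peaks) and 0 to 333 lower (0.0857% to 53.1%). Added after seeing the data, median-of-ratios scaling without control 1 gave 235 and 38 (15.0% and 10.3%), and with a replicate block 258 and 59 (17.0% and 12.3%). Pseudocounts and edgeR on library totals stayed within 1.5 times of 15, as did the fit with no minimum, whose 15 and 10 (0.740% and 0.554% of all peaks) shared 9 and 7 with the calls reported. Same-numbered libraries did not deviate together (correlations of -0.01, 0.01 and -0.02), and a replicate block on the deposited scale gave 15 and 13 (1.11% and 1.76%). The median LINE difference relative to all tested peaks was between 0.12 and 0.29 in every fit. Of the settings tried on the named peaks, 470 left direction and call as reported, 89 lost the call, 7 gained one and 24 turned the direction, all of these in fits with rescaled libraries and for peaks of high mean not called as deposited. Those log2 differences were, with median-of-ratios scaling, 0.035 (Rnf181), 0.14 (Siah1a), 0.29 (Otos), 0.015 (Pitpnb) and 0.073 (Brinp3), and the same with its block; 0.14, 0.23, 0.39, 0.14, 0.16 and 0.0062 (Uck2) with quantile normalization; 0.048, 0.14, 0.30, 0.020 and 0.065 with TMM factors; and 0.078 (Siah1a), 0.20 (Otos) and 0.11 (Brinp3) with median-of-ratios scaling without control 1. No setting gave a called LINE silencing gene in muscle RNA. With 3 libraries a group, no exact test of a single peak could go below p = 0.1, and peaks under about 20 tags rest on few read ends.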
